A study of Bos indicus with 72 samples.

Results

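The uterus and the liver of Brahman heifers were compared by RNA sequencing, over 24 of the 72 libraries of a study that sampled 6 tissues of 12 animals around puberty. Brahman is a Bos indicus beef breed, and a heifer is a young female that has not yet calved. Each tissue had 12 libraries, 1 per animal, made from total RNA and sequenced as paired ends, and by the labels 6 were from post-pubertal and 6 from pre-pubertal heifers in each tissue. No other treatment, age or genotype is labelled. A gene's level was its RPKM, which divides the reads on the gene by its length and by the size of the library. Uterus files held 14437 genes, all of which the liver files also listed. The comparison kept the 7576 genes whose 12 uterus values were all at least 2 on the log2 scale, about 4 RPKM, and away from the value that a level of 0 gives. The uterus values had lost their sign, so a level far below 1 RPKM can look like a high one. Whole reads placed 47 of the kept genes below 0 on the log2 scale in a uterus library, 46 of them in all 12, and these were left out. The remaining 7529 genes were tested. No limit was set on the liver side. Just inside the limit, 228 genes had a lowest uterus value between 2 and 2.1, and just outside it 255 genes had one between 1.9 and 2.

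The liver makes most plasma proteins, clears and converts nutrients, steroids and toxins, and stores glycogen, and hepatocytes form most of its mass. The uterus is a layered organ. Its endometrium of epithelium, glands and stroma changes with ovarian estradiol and progesterone, and its myometrium is smooth muscle. The files identify genes by Ensembl number and do not pair these with names, and 0 of the numbers matched the RefSeq table at hand. The labelled tissues could therefore not be checked against their markers, and no gene below is given a name or role.

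All 24 libraries were sequenced to a like depth. Reads on genes numbered 17.1 to 23.7 M (mega-reads) in the uterus libraries and 18.8 to 25.9 M in the liver libraries. Each tissue was sequenced in library sets of its own, so tissue and library set cannot be told apart. The same animal numbers appear in both tissues. The headers of the liver files, however, give animal 2054 as pre and animal 2059 as post, against their liver labels. The uterus labels match the liver labels, with animal 2054 post and animal 2059 pre. In the hypothalamus, pituitary and ovaries the labels give the opposite. The tissues were therefore compared as unpaired groups.

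The tissues divided their reads among genes very differently. In the uterus the most abundant gene of a library held between 1.12% and 2.53% of the gene reads, with a median of 1.98%, whereas in the liver it held between 5.21% and 10.7%, with a median of 8.37%. The 50 most abundant genes held 21.9% ± 2.29 of gene reads in the uterus and 42.3% ± 2.31 in the liver (SD, n = 12 each). The number of genes needed to reach 50% of the gene reads was 286 to 620 in the uterus, with a median of 430.5, against 67 to 136 in the liver, with a median of 90.5. No uterus library overlapped the liver libraries in any of these 3 measures. The 10 most abundant genes held 8.46% ± 1.10 in the uterus and 24.5% ± 1.71 in the liver, and the genes that both kinds of file list held 83.8% ± 2.31 of all reads of a library in the uterus and 88.9% ± 1.03 in the liver, the last of these with overlap. Each of these 5 measures gave p = 2.0e-05 in a two-sided permutation test with 100000 resamples, the smallest p that number can give, and 2.0e-05 after Benjamini-Hochberg adjustment. The highest counts of genes among the uterus libraries, 589, 600 and 620, came from post heifers, and so did the lowest, 286.

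**Figure D1:**
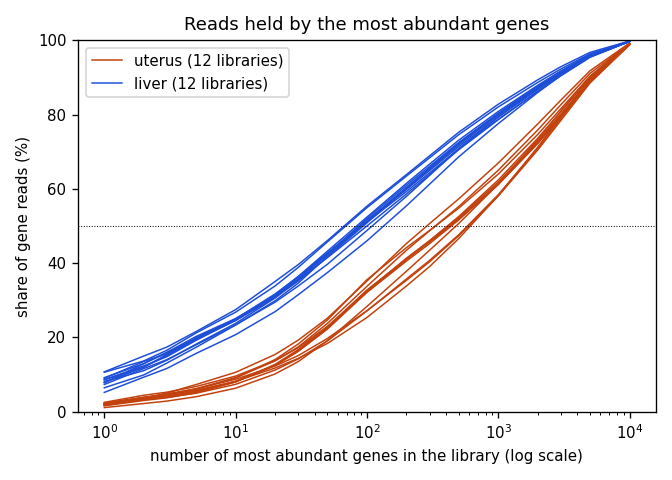
Share of gene reads, in percent, held by the most abundant genes of each library, against the number of genes counted on a log scale. Each line is 1 library, 12 from uterus and 12 from liver, and every uterus line crosses 50% to the right of every liver line, at 286 to 620 genes against 67 to 136.

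The most abundant genes were mostly different ones. Of the 50 genes with the most reads summed over the uterus libraries, 8 were among the 50 with the most in the liver. This is 16% of each list, and of the top 500 by reads 192 were shared, 38.4% of each. Reads in these rankings were not divided by gene length. Over the 12333 genes with a mean of at least 1 RPKM over the 24 libraries, 651 had a mean of 100 RPKM or more in the uterus, 689 did in the liver, and 303 did in both. At 1000 RPKM or more there were 104 genes in the uterus, 87 in the liver and 30 in both. The highest mean was 9216 RPKM in the uterus and 36000 RPKM in the liver. Libraries of a tissue were far more alike than libraries of different tissues. Over 4451 genes at or above about 4 RPKM in all 24 libraries, Spearman's rho between libraries was 0.802 to 0.973 within the uterus, with a median of 0.915. It was 0.890 to 0.973 within the liver, with a median of 0.942. Between a uterus and a liver library it was 0.556 to 0.659, with a median of 0.608. These are correlations across genes, which are not independent replicates.

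Of the 7529 genes tested, 6882 (91.4%) differed between uterus and liver at an adjusted p under 0.05 (limma on log2(RPKM + 0.001), Benjamini-Hochberg adjustment over all genes tested). Levels were higher in the uterus for 6163 genes (81.9%) and higher in the liver for 719 genes (9.55%). For 4565 genes (60.6%) all 12 uterus libraries lay above all 12 liver libraries, and for 293 genes (3.89%) all lay below. The other 647 genes did not pass the threshold, with a median standard error of their difference of 0.15. The difference in mean log2(RPKM + 0.001), uterus minus liver, had a median of 1.32 and quartiles of 0.62 and 1.99. Without animals 2054 and 2059 the count was 6815, of which 6117 were higher in the uterus. These are whole tissues, so fewer cells of a type and less RNA per cell cannot be told apart.

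The split between the directions depended on the scale and on the limit set on uterus values alone. When each library was centred on its median over the tested genes, 5976 genes (79.4%) passed. Of these, 3168 were higher in the uterus and 2808 higher in the liver, and the median difference was 0.07. Centring sets the library medians equal, so a median difference near 0 and a split closer to even follow from the method. With TMM factors, which ranged from 1.32 to 1.68 in the uterus and from 0.535 to 0.706 in the liver, 3307 genes were higher in the uterus and 2658 in the liver, around a median difference of 0.11. Tests on whole reads recovered from the deposited values gave 3224 higher in the uterus and 2754 higher in the liver with edgeR. With DESeq2 they gave 3076 higher in the uterus and 2928 higher in the liver. Both took their scaling factors from tested genes, which were kept by uterus level alone. With the most abundant genes left out of the library total, and the values otherwise as deposited, 5571 genes were higher in the uterus and 1097 in the liver, around a median difference of 0.95. Of the 6163 genes higher in the uterus as deposited, 3168 were called so after centring, and 1454 were called higher in the liver. With the same limit of about 4 RPKM in both tissues, 3842 of 4451 genes (86.3%) passed, 3125 higher in the uterus and 717 in the liver, with a median difference of 0.85. The same genes with library medians centred gave 1894 higher in the uterus and 1629 in the liver, an alternative chosen after seeing the data.

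**Figure D2:**
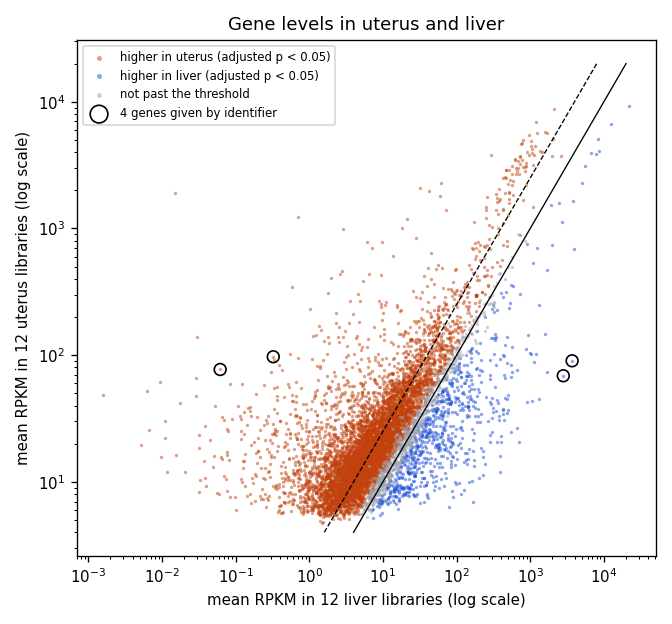
Mean RPKM of each of the 7529 tested genes in 12 uterus libraries against its mean in 12 liver libraries, both on log scales. Colours mark genes higher in the uterus, higher in the liver or not past the threshold, the solid line is equality, the dashed line the median difference of 1.32, and circles mark the 4 genes given by identifier; the cloud lies above the solid line and spreads furthest to the left, at liver levels under 1 RPKM.

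**Figure D3:**
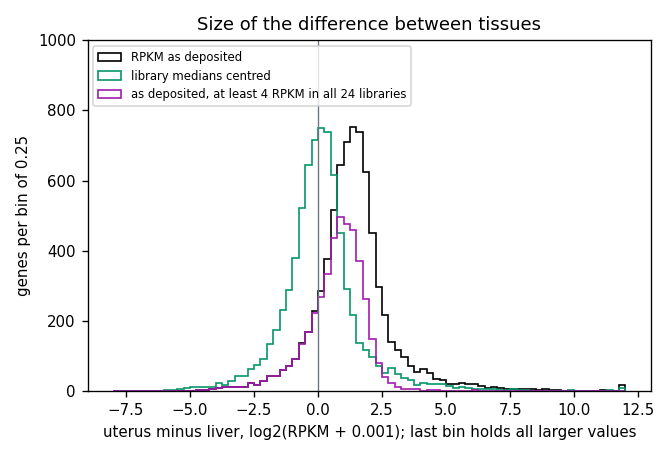
Number of genes, per bin of 0.25, by the difference uterus minus liver in mean log2(RPKM + 0.001). The distribution peaks above 0 for the tested genes as deposited and for genes with the same limit in both tissues, at medians of 1.32 and 0.85. It peaks near 0 once library medians are centred, which the centring itself brings about.

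Genes with little signal in the liver made up the long tail of uterus-higher genes. As deposited, 4700 genes were at least 2-fold higher in the uterus and 376 at least 2-fold higher in the liver. At 16-fold the counts were 423 in the uterus and 20 in the liver, and at 64-fold 151 in the uterus and 0 in the liver. After centring, 216 genes were at least 16-fold higher in the uterus and 81 in the liver. The 50 tested genes with a liver mean under 0.1 RPKM had a median uterus level of 19.1 RPKM, with quartiles of 12.3 and 32.3 RPKM, and all 50 were called higher in the uterus. The highest uterus mean in that class was 1896 RPKM. Another 322 genes had a liver mean between 0.1 and 1 RPKM and a median difference of 4.62, and all 322 were called higher in the uterus. Since every tested gene had at least about 4 RPKM in each uterus library, a gene this low in the liver had to differ, so these counts describe the tail and do not test it. Sizes at such liver levels depend on the pseudocount. 3 genes were listed at 0 in all 12 livers, with uterus means of 18.7 to 60.4 RPKM, and 52 more were at 0 in some livers.

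Toward higher liver levels more of the genes were higher in the liver; the liver level is itself one side of the difference, so this describes the cloud of genes and is not tested. Among 3116 genes with a liver mean of 4 to 16 RPKM, 2788 were higher in the uterus and 73 in the liver, with a median difference of 1.23. Among 1848 genes with 16 to 100 RPKM in the liver, 1103 were higher in the uterus and 418 in the liver, with a median difference of 0.54. For the 473 genes at 100 RPKM or more in the liver, 180 were higher in the uterus and 228 in the liver, and the median difference was −0.31, with median levels of 167 RPKM in the uterus and 223 RPKM in the liver. Grouping by uterus level showed no such turn, and median differences ran from 1.15 to 1.71 over 5 classes of uterus level. The difference also varied with gene length as recovered from the values. With genes cut at the quartiles of length, its median was 1.003 in the shortest class, with a median length of 898.5 bases, then 1.16 and 1.41, and 1.60 in the longest class, with a median length of 3737 bases. Spearman's rho between length and difference across genes was 0.19, and the part of length in the difference was not tested.

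The limit on uterus values left out the genes most restricted to the liver. Of the 6861 genes not kept, 1235 had a liver mean of 4 RPKM or more and 214 had 100 RPKM or more. When all 12333 genes with a mean of at least 1 RPKM were tested with recovered uterus signs on log2(RPKM + 0.5), 11053 (89.6%) passed, 9204 higher in the uterus and 1849 in the liver. With TMM factors, an alternative chosen after seeing the data, the same genes gave 5186 higher in the uterus and 4580 in the liver. Without TMM factors, of the 4808 genes that the wider test added, 3048 were higher in the uterus and 1131 in the liver. Also without TMM factors, 298 genes were at least 16-fold higher in the uterus and 364 in the liver. At 64-fold these counts were 37 higher in the uterus and 230 in the liver. Less the median difference of 1.16, the counts at 16-fold were 103 higher in the uterus and 534 higher in the liver. These sizes use a larger pseudocount than those given before, which shrinks differences at low levels. A set of 145 genes had a mean under 1 RPKM in the uterus and of at least 100 RPKM in the liver, whereas 6 genes had at least 100 RPKM in the uterus and under 1 RPKM in the liver. The summed level of the 145 genes was 15.4 to 35.5 RPKM in the uterus libraries, with a median of 26.6, against 156866 to 202711 RPKM in the liver libraries, with a median of 176561. In the opposite direction, 216 genes of the main test, not the wider one, were at least 16-fold higher in the uterus after centring. They had a median level of 20.05 to 40.4 RPKM in single uterus libraries and of 0.172 to 0.381 RPKM in single liver libraries. Both sets were chosen by these levels, so the ranges over libraries are descriptions.

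The largest differences among genes with no overlap between tissues, no library at 0, a mean of at least 5 RPKM in the higher tissue and a settled sign are given by identifier, 2 in each direction. ENSBTAG00000003894 had 4.51, 46.3 and 225 RPKM in uterus libraries (lowest, median and highest), against 0.0134, 0.0574 and 0.126 RPKM in liver libraries. The liver values rest on 1 to 9 reads per library, whereas the uterus values rest on 329 to 16252 reads. Its difference was 9.21 ± 0.64 (standard error; limma adjusted p = 1.7e-13), or 7.95 with each library centred on its median. With so few liver reads the size depends on the pseudocount, and it was 5.05 with a pseudocount of 1. ENSBTAG00000016514 had 31.9, 90.7 and 184 RPKM in the uterus, against 0.0136, 0.114 and 1.13 RPKM in the liver, with 1 to 90 liver reads. The difference was 9.15 ± 0.53 (limma adjusted p = 4.9e-15), or 7.89 with each library centred on its median. Its size depends on the pseudocount too, and it was 6.14 with a pseudocount of 1. Every uterus library was at least 31.9 RPKM, and the highest liver library was animal 2056.

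The genes furthest in the other direction were well measured in the uterus and far more abundant in the liver. ENSBTAG00000000442 had 30.8, 86.6 and 154 RPKM in uterus libraries (lowest, median and highest), against 2616, 3680 and 4514 RPKM in liver libraries. Its difference was −5.47 ± 0.19 (limma adjusted p = 1.4e-19), or −6.73 with each library centred on its median. ENSBTAG00000020980 had 32.4, 66.5 and 97.5 RPKM in the uterus, against 2055, 2926 and 3685 RPKM in the liver. Its difference was −5.39 ± 0.14 (limma adjusted p = 1.6e-21), or −6.64 with each library centred on its median. For both genes each liver library was above every uterus library by more than the spread within either tissue, and uterus levels rested on at least 701 reads.

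**Figure D4:**
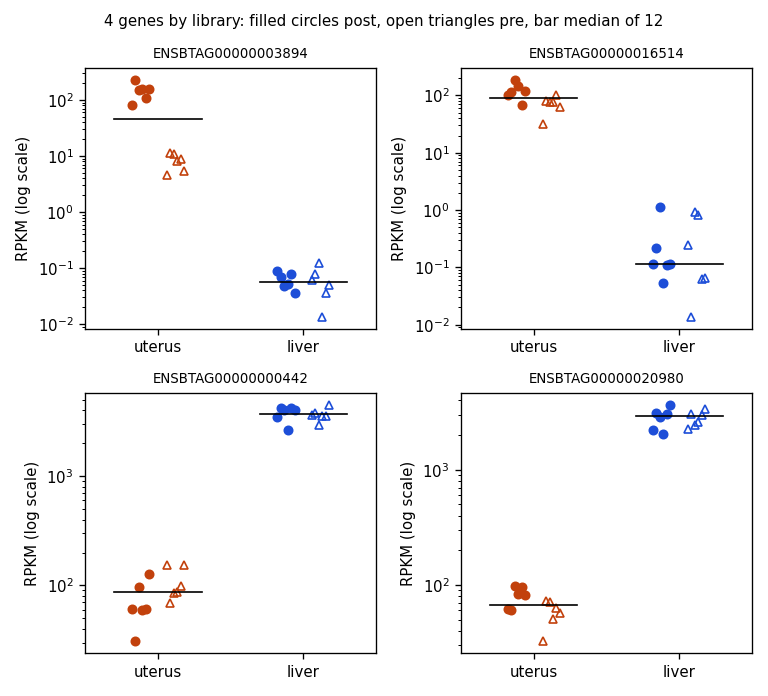
RPKM on a log scale of the 4 genes given by identifier in each of 12 uterus and 12 liver libraries. Filled circles are post and open triangles pre heifers, bars are the median of 12, and uterus and liver do not overlap for any of the 4; the uterus values of ENSBTAG00000003894 form separate groups of post and pre heifers.

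Both library sets of each tissue gave nearly the same contrast. The first sets alone called 6543 genes and the second sets 6643, with 6343 genes called in both in the same direction and 0 in opposite directions, and the median absolute difference between the estimates was 0.16. Post heifers alone gave 6618 genes and pre heifers alone 6653, with animals 2054 and 2059 kept as labelled in these tissues. Between those, 6274 genes were called in the same direction, 8 in opposite directions, and the median absolute difference was 0.25.

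The spread between heifers was close in uterus and liver within post and within pre heifers, and larger in the uterus over all 12. Over the 4451 genes with the same limit in both tissues, the SD of log2(RPKM + 0.001) over 12 libraries had a median of 0.3003 in the uterus and 0.265 in the liver. It was larger in the uterus for 60.2% of genes. Within the 6 post libraries the medians were 0.254 in the uterus and 0.253 in the liver, with 50.3% of genes larger in the uterus. Within the 6 pre libraries they were 0.255 in the uterus and 0.273 in the liver, with 45.8% larger in the uterus. Animals 2054 (post) and 2059 (pre) were kept in these groups as labelled. Genes with an SD above 1 over 12 libraries numbered 58 in the uterus and 24 in the liver.

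Few genes passed a test of whether the contrast between the tissues itself differed between post and pre heifers. This test of tissue by status used 10 uterus and 10 liver libraries, without animals 2054 and 2059. In it, 29 of 7529 genes (0.385%) passed at an adjusted p under 0.05 (limma, Benjamini-Hochberg adjustment). An unadjusted p under 0.05 was given by 927 genes (12.3%). For 20 genes the uterus minus liver difference was larger in post heifers, with a median change of 1.96, beside median post minus pre differences of 2.01 in the uterus and −0.08 in the liver. For the other 9 it was smaller in post heifers, with a median change of −1.67, beside medians of −1.37 in the uterus and 0.22 in the liver. All 29 moved further in the uterus, as did 67.7% of all tested genes, and the largest absolute post minus pre difference in the liver among them was 0.87. Over all tested genes the median absolute post minus pre difference was 0.21 in the uterus and 0.11 in the liver, against a median absolute difference between tissues of 1.41, or 0.69 after centring. The count depended on single animals. Leaving out animal 2046 gave 15 genes and leaving out animal 2060 gave 16. With animal 2048 left out 17 genes passed, and with animal 2049 or animal 2061 left out 18 did. Adding animals 2054 and 2059 as labelled gave 117. The count with a smaller difference in post heifers depended most on single animals: 0 genes passed in that direction without animal 2060, 1 without animal 2057 or animal 2064, 2 without animal 2046 or animal 2061, 4 without animal 2048 and 21 without animal 2055. Those with a larger difference in post heifers numbered 12 to 22 when each animal was left out, with the lowest count, 12, without animal 2049 and 13 without animal 2046 or animal 2048.

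ENSBTAG00000003894 was among the 29. Uterus libraries of the 5 post heifers had 81.2, 150 and 225 RPKM (lowest, median and highest), against 4.51, 8.84 and 11.4 RPKM in the 5 pre heifers. Liver libraries had 0.0364, 0.0690 and 0.0890 RPKM in post heifers, against 0.0360, 0.0625 and 0.126 RPKM in pre heifers. Post and pre did not overlap in the uterus and overlapped fully in the liver. The change of the contrast was 4.20 ± 0.53 (limma adjusted p = 0.00087). The animals left out of that test had 158 RPKM (animal 2054, labelled post) and 8.15 RPKM (animal 2059, labelled pre) in the uterus. Among the other 3 genes given by identifier, none passed this test.

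**Figure D5:**
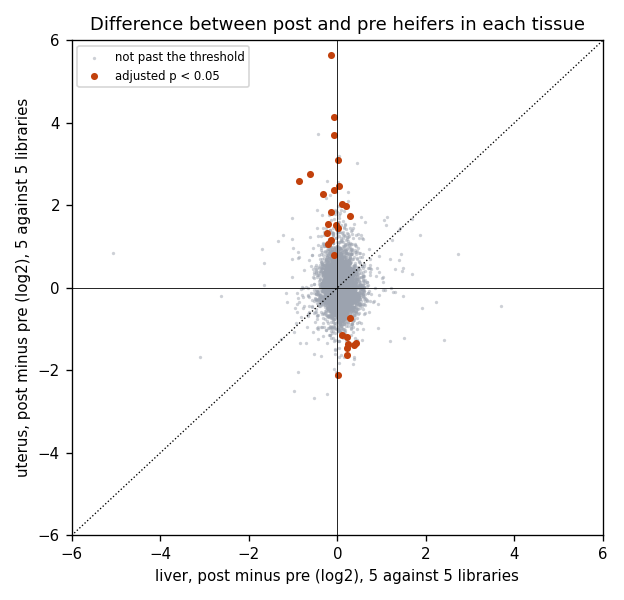
Post minus pre difference in mean log2(RPKM + 0.001) in the uterus (vertical axis) against that in the liver (horizontal axis), for 7529 genes over 5 post and 5 pre libraries per tissue. The 29 genes past the threshold are marked; they lie along the vertical axis, within 0.87 of 0 in the liver, and the dotted line marks equal differences.

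The other 4 tissues of these heifers, which the contrast did not use, showed where else the divergent genes were measured. Their levels were computed from deposited counts as RPKM of the gene reads alone, which is not quite the scale of the uterus and liver values, so no test was made across them. The 216 genes at least 16-fold higher in the uterus after centring had a median of 31.3 RPKM in the uterus and 0.297 RPKM in the liver, and a median gene-read RPKM of 6.52 in hypothalamus and 7.11 in pituitary libraries. Tested genes under 16-fold had medians of 18.1 (hypothalamus) and 19.5 (pituitary). The 81 genes at least 16-fold higher in the liver had a median of 24.8 RPKM in the uterus and 311 RPKM in the liver. Their medians were 25.4 in hypothalamus and 28.6 in pituitary libraries. These 81 genes had passed the limit of about 4 RPKM in every uterus library, whereas the uterus-higher genes faced no limit in the liver. The 214 genes not kept that had 100 RPKM or more in the liver could not enter. Levels of the classes in other tissues therefore do not compare liver-higher with uterus-higher genes in general. Left and right ovary libraries held only 184808 to 334454 gene reads. There the medians were 2.90 and 2.71 for the uterus-higher genes, 4.90 and 5.40 for the liver-higher genes and 4.06 and 4.29 for the rest.

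The genes given by identifier were detected in the hypothalamus and pituitary libraries as well. In the ovary libraries their averages were low for all but ENSBTAG00000016514. ENSBTAG00000003894 averaged a gene-read RPKM of 409 ± 120 over 12 hypothalamus libraries and 22.1 ± 8.87 over 12 pituitary libraries (SD). ENSBTAG00000016514 averaged 632 ± 75.9 in the hypothalamus libraries and 254 ± 27.0 in the pituitary libraries. ENSBTAG00000000442 averaged 169 ± 173 in the hypothalamus, where its libraries ran from 52.9 to 663, and 179 ± 46.5 in the pituitary. ENSBTAG00000020980 averaged 52.5 ± 8.52 over hypothalamus and 39.5 ± 5.57 over pituitary libraries. Among the shallow ovary libraries, ENSBTAG00000016514 averaged 11.8 ± 7.62 in the left and 11.3 ± 6.79 in the right ovary. ENSBTAG00000003894 averaged 0.787 ± 1.25 in the left ovary, with a median of 0, and 1.97 ± 2.13 in the right. ENSBTAG00000000442 averaged 1.66 ± 3.36 in the left and 2.71 ± 2.59 in the right ovary, and ENSBTAG00000020980 averaged 2.64 ± 3.50 in the left and 2.29 ± 2.88 in the right. Each of the 4 genes was at 0 in a left ovary library, and each but ENSBTAG00000016514 in a right ovary library.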

How the data were processed

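The liver files hold RPKM values as the authors deposited them, and the uterus files hold deposited values that behave as the absolute value of log2(RPKM + 0.001), per the values themselves. For the other 4 tissues the deposited values are raw read counts for each gene. The genome build was UMD3.1, per the submitters' processing notes. How reads were aligned and counted, with what annotation and with or without strand, is not given in the sources. Overlapping, antisense and near-identical genes may share reads.

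Whole reads were recovered by finding the library totals and gene lengths that make all values of a gene whole within 0.003 reads. This held for 17852 of 17853 liver genes above 0 and gave a length for 14357 of 14437 uterus genes. Shares were taken over uterus values above 0 reads, precise enough to judge, in genes given a length. Of these values 100.0% were whole with the true totals, and 2.10% with shifted totals and the same lengths. A length was accepted only where the values came out whole, so the first share was largely fixed by the search itself. Reading each value as whole reads set its sign, and 592 of 173244 values were not settled. These signs removed 47 genes from the comparison and served the wider one.

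The main test was limma 3.58.1 (R 4.3.3) with intensity trend and robust variances on log2(RPKM + 0.001), two-sided, with Benjamini-Hochberg adjustment and a threshold of 0.05. A fold change on this scale is understated for low genes where a larger pseudocount is used. edgeR 4.0.16 (quasi-likelihood) and DESeq2 1.42.0 were run on recovered reads as alternatives. Scripts were tested on simulated data. Groups come from the labels, and each library is a separate heifer within a tissue. The identifiers given are the largest differences in each direction by the rule in the text. Genes, lists and tests were chosen with earlier results of these data known. Lists of marker and pathway genes could not be used without gene names. Counting sets the precision of low levels, and intervals from reads cover counting error only.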

Additional observations from a re-analysis of the deposited data

Results flagged for a closer look

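In 1 liver library, that of the pre heifer 2055, 136 genes were needed to reach 50% of gene reads, and the nearest of the other pre livers needed 91. ENSBTAG00000016514 had 1.13 RPKM in the liver of the post heifer 2056, where the nearest of the other post livers had 0.214 RPKM. Levels near 1.13 RPKM were also seen in pre livers, with 0.940 RPKM in animal 2055 and 0.833 RPKM in animal 2059. The other pre livers had 0.243 RPKM or less. Of 36 groups of 6 libraries looked at, 2 held a library set apart within its own group, and chance gives about 1.8.

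The contrast between uterus and liver differed between post and pre heifers, by a test of the difference itself, for 29 genes, and for ENSBTAG00000003894 by 4.20 on the log2 scale.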

How the results depend on the processing

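The count of 6882 genes differing between uterus and liver stayed within 1.5 times under pseudocounts of 0.1, 0.5 and 1, a stricter uterus limit, each scaling, edgeR, DESeq2 and limma without trend, and it was 6807 to 6896 when each animal was left out. It was 3842 of 4451 genes with the same limit in both tissues, 3523 with that limit and centring (added after seeing the data), and 11053 of 12333 genes without a limit on uterus values, changes in which genes were tested. The share of calls higher in the uterus moved with the scale and the limit, as given above. The 29 genes of the status test became 54 with a pseudocount of 0.5, 117 with animals 2054 and 2059 added, 16 with the same limit in both tissues, and 15 to 43 when each animal was left out. All 29 kept their direction wherever tested, but fewer of them stayed past the threshold. With the animal number as a block 15 of the 29 did, and 15 to 26 did when each animal was left out. ENSBTAG00000003894 gave 3.90 to 4.52 over 14 alternatives, with a largest limma adjusted p of 0.024.

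With the labelled animal number as a replicate block, 6869 genes differed between the tissues and 18 differed by status, 16 with a larger and 2 with a smaller difference in post heifers. Deviations of same-numbered libraries correlated with a median r of −0.03, against 0.003 for libraries with other numbers. Of the 12 same-numbered pairs 2 were above 0.1, and 0 uterus libraries correlated best with their own number. Deviations in different tissues need not correlate within an animal, so these values cannot tell whether the numbers pair the samples. The 4 genes given by identifier kept direction and call in every alternative that tested them. They were picked as the largest differences without overlap in these same libraries, so this was largely fixed in advance. Their ranges were 5.05 to 11.16 for ENSBTAG00000003894, 6.14 to 9.63 for ENSBTAG00000016514, −6.73 to −5.13 for ENSBTAG00000000442 and −6.67 to −5.14 for ENSBTAG00000020980. Liver levels under about 0.1 RPKM rest on few reads, which limits their fold changes.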
